A study of Mus musculus with 8 samples.

Results

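Trhde, Dmrta1, Mkx, Pclo and Mapk15 were selected on their normalized counts in these livers, which were lower in each liver of Brap LKO mice than in each liver of Brap F/F mice, and the values that chose them are given here as a description. They are 5 of the 24451 genes in the deposited table, and all 5 met the filter for testing, a mean of 5 or more normalized counts, as did 15352 genes in total. Dmrta1, Mkx and Pclo passed this filter only through the Brap F/F livers, where they were high. Of the tested genes, 674 (4.39%) were lower in every Brap LKO liver than in every Brap F/F liver. The share that was higher in every Brap LKO liver is not given here. Groups that lie apart in that direction are therefore named below as a description only. At an adjusted p under 0.05 from limma, 118 tested genes (0.769%) differed between the groups and 16 (0.104%) were lower in Brap LKO livers. These counts depended on the setting. DESeq2, the study's test, called 607 genes and 159 as lower on recovered reads, and with 1 liver left out limma called between 18 and 232, with between 4 and 54 lower. The 5 genes are among the 16 lower genes of limma, and nothing is read from this, since the same contrast chose them. With each liver left out in turn, between 4 and 13 of the 16 genes were still lower at the threshold. At an unadjusted p under 0.05 the share of tested genes was 15.8%.

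Bulk RNA sequencing was done on the left lobe of the liver of 4 Brap LKO mice (Brap fl/fl with Alb Cre) and 4 Brap F/F mice (Brap fl/fl without Cre). All were mice of 18 wk, labelled C57BL/6 (C57BL/6J by the study's methods) and fasted for 6 h. The labels give no sex, and the study's general methods say that male mice were used. Each library came from a separate animal by its label. The animal numbers in the labels fall in a low range, with 3 Brap LKO mice but 1 Brap F/F mouse, and a high range, with 1 Brap LKO mouse but 3 Brap F/F mice. This is called the animal series here. The series was therefore unequal between the groups. When the limma model also held it, 10 of the 16 genes called lower were still past the threshold. The Albumin promoter is used to drive Cre in hepatocytes. Which cells of these livers lost the gene was not tested, and an effect of Cre itself cannot be told apart from that of the deletion. Depth ran from 26280884 to 33313914 reads on genes. In whole liver, fewer cells of a type and less RNA per cell cannot be told apart.

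Brap encodes a ubiquitin ligase that restrains Ras signaling to MAP kinases. The 5 genes belong to different classes of protein: a peptidase of the cell surface, a pair of transcription factors, a scaffold of nerve terminals and an atypical MAP kinase. Trhde cleaves thyrotropin-releasing hormone (TRH), and a soluble form of the enzyme in serum comes from the liver, whereas Mkx and Pclo are best known from tendon and from synapses.

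Brap, the targeted gene, was counted at 4042, 4203, 4065 and 3641 in Brap LKO livers 1 to 4 after normalization. In Brap F/F livers 1 to 4 the counts were 4410, 4235, 3994 and 4106. The groups overlapped. Cre removes only some exons of Brap, so counts over the whole gene do not check the labels.

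Brap F/F livers 2 and 3 stood apart from the other livers in genes of sex-biased liver expression. The summed normalized count of 12 male-biased genes was 332613, 153835, 105900 and 429991 in Brap F/F livers 1 to 4, and between 314546 and 464774 in Brap LKO livers. For 13 female-biased genes the sums were 1317, 4678, 5243 and 1254 in Brap F/F livers 1 to 4, and at most 2133 in Brap LKO livers. Cyp4a14, a fatty acid hydroxylase, was counted at 45700 and 31815 in Brap F/F livers 2 and 3, at 9235 and 707 in Brap F/F livers 1 and 4, and at most at 3965 in Brap LKO livers. Results are therefore also given without Brap F/F livers 2 and 3, an alternative chosen after seeing the data. Without them, 48 genes were lower at the threshold, and 8 of the 16 genes were among them. The part of this difference between livers in the results below was not tested.

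The RefSeq promoter windows (GRCm38.p6, 250 bases before to 50 after the gene start) of Trhde, Dmrta1 and Pclo are shown as a description. GC boxes (GGGCGG, either strand) are in capitals. The 5 genes are low in the same livers because the rule chose them so, and shared control of them was not tested. The windows are those of Trhde (chr10:114802253-114802552, minus strand), Dmrta1 (chr4:89687948-89688247, plus strand) and Pclo (chr5:14514668-14514967, plus strand), each read 5′ to 3′. Mapk15 and Mkx are named only.
Trhde: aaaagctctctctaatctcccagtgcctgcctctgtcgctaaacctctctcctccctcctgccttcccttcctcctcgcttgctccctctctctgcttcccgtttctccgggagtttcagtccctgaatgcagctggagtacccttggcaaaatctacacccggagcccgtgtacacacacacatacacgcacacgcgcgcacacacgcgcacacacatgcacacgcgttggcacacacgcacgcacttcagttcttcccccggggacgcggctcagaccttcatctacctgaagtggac
Dmrta1: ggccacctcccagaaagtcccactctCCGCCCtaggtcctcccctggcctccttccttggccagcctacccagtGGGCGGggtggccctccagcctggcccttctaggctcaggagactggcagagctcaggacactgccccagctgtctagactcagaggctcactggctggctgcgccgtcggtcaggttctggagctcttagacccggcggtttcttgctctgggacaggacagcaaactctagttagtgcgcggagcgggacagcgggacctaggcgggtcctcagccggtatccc
Pclo: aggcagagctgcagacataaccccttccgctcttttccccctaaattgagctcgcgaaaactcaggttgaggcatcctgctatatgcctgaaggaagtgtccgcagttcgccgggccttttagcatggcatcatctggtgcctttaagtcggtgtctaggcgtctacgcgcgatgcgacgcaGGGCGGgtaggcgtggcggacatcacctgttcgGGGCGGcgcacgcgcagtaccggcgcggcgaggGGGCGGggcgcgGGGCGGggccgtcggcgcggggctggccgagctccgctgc

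GC boxes were present at 4 places in the Pclo window, at 2 in that of Dmrta1 and at 0 in that of Trhde, and 35.7% of all 32851 promoter windows of this length held at least 1. The Pclo window had 35 CpG dinucleotides and the Trhde window 19, against a median of 7. In the Dmrta1 window there were 13. Of all windows, 93.0% had fewer CpG dinucleotides than that of Pclo, 71.9% fewer than that of Trhde and 62.1% fewer than that of Dmrta1. GC content was 66.0% for Pclo, 65.3% for Dmrta1 and 58.3% for Trhde, with a median of 52.7% over all windows. Motifs for TEAD (GGAATG, in 14.7% of all windows), STAT5 (TTCNNNGAA, 8.30%), HNF4A (CAAAGTCCA, 0.475%) and the TATA box (TATAAA, 13.6%) were searched on both strands, and these letters had 0 matches in each of the 3 windows. The E-box (CANNTG, 72.3%) matched at 2 places in Trhde, 1 in Dmrta1 and 2 in Pclo. These motifs were chosen after the values were seen, and a match is a description of letters. The Dmrta1 window starts from a RefSeq gene start 8762 bases inside the gene as GENCODE annotates it, while those of Trhde and Pclo lie 5 and 0 bases from the GENCODE start.

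Trhde (ENSMUSG00000050663), the TRH-degrading ectoenzyme, is on the minus strand of chromosome 10 (mm10), from 114398823 to 114802307. Normalized counts were 22.8, 19.5, 15.2 and 6.24 in Brap LKO livers 1 to 4. They were 91.2, 95.6, 99.9 and 92.2 in Brap F/F livers 1 to 4. The Brap F/F livers lay close together, and Brap LKO liver 4 was the lowest of all. The lowest Brap F/F liver was 4.01 times the highest Brap LKO liver. Means were 15.9 ± 7.17 (SD, n = 4) in Brap LKO and 94.7 ± 3.90 (SD, n = 4) in Brap F/F livers. The log2 fold change on the log2(normalized count + 1) scale was -2.63 (standard error 0.337). This standard error and those of Mkx, Pclo and Mapk15 below come from the limma fit of the contrast that chose the genes. Nothing is read from them. From 69 reads in Brap LKO and 363 in Brap F/F livers, Brap F/F livers held 5.80 times as many reads at equal scaling. The variance between Brap F/F livers was 0.151 times that expected from counting alone, and between Brap LKO livers 3.20 times. Without Brap F/F livers 2 and 3 the log2 fold change was -2.58. Of the exon bases of Trhde, 538 (6.67%) overlap Gm15723 on the opposite strand, which was counted at means of 1.32 and 2.58 in the respective groups. Use of strand in counting is not given in the sources used here, so reads of such pairs cannot be told apart.

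**Figure D1:**
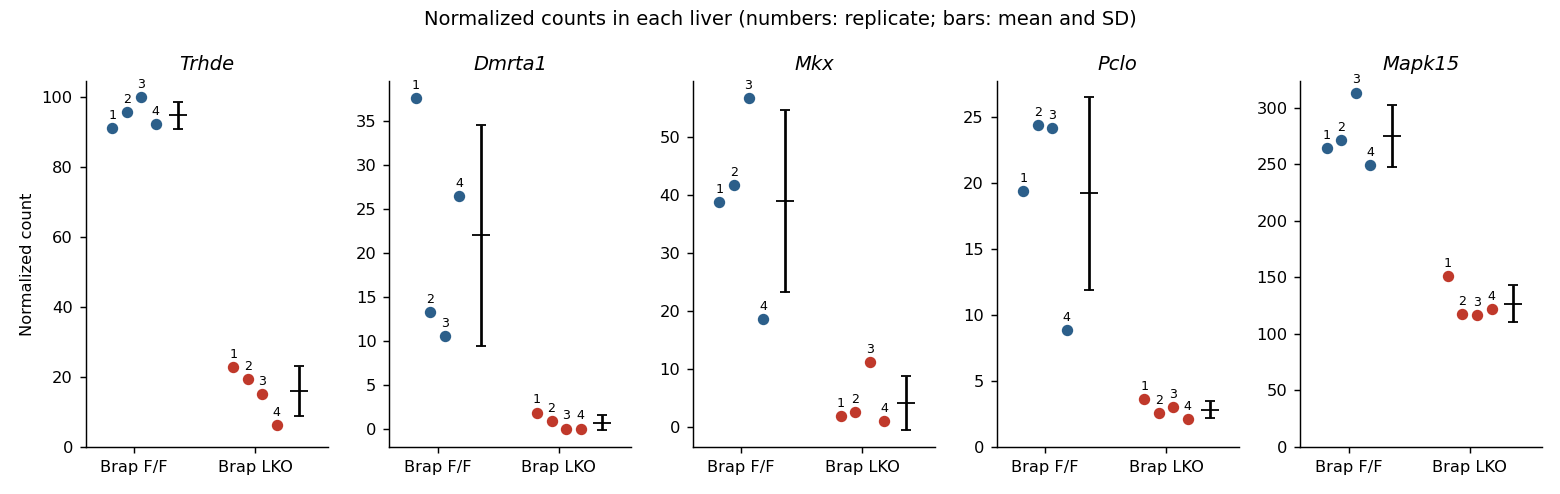
Normalized counts (vertical axes, from 0, a separate scale for each gene) of the 5 genes in each Brap F/F (blue) and Brap LKO (red) liver, with replicate numbers and bars for the mean and SD of 4 livers. Trhde lies between 91.2 and 99.9 in the Brap F/F livers and between 6.24 and 22.8 in the Brap LKO livers.

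Among genes that handle TRH and thyroid hormone, 9 of 15 listed genes were in the table and 8 were tested. Those not in the table included Trh and its receptors Trhr and Trhr2. None (0) passed the threshold with limma, and 1 had an unadjusted p under 0.05. This was Thra, a thyroid hormone receptor, with 388, 405, 383 and 348 normalized counts in Brap LKO livers 1 to 4 and 310, 338, 356 and 313 in Brap F/F livers 1 to 4. The groups of Thra overlapped, its log2 fold change was 0.21 (limma adjusted p = 0.277), and 263 of its exon bases are shared with Nr1d1 on the opposite strand. Limma with the same total per liver called Thra as higher in Brap LKO livers (log2 fold change 0.37, adjusted p = 0.0454). The list's most abundant gene, Ttr, a carrier of thyroid hormone in blood, had a log2 fold change of -0.44 (limma adjusted p = 0.327). The median of the list was -0.10, against -0.01 for all tested genes. Of 10 peptidases of the M1 family, to which Trhde belongs, 9 were tested, 0 passed with limma and 0 had an unadjusted p under 0.05. Their median was -0.02, and the most abundant, Anpep, had a log2 fold change of -0.0054, the sign of which depended on the setting.

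Dmrta1 (ENSMUSG00000043753) encodes a transcription factor with a DM domain, a DNA-binding domain known from regulators of sex determination. It lies on chromosome 4 from 89679436 to 89694772 on the plus strand, and its exons overlap no other gene. In Brap LKO livers 1 to 4, 1.82, 0.850, 0 and 0 normalized counts were found, from 2, 1, 0 and 0 reads. In Brap F/F livers 1 to 4 there were 37.6, 13.2, 10.5 and 26.5. Livers 1 and 4 of the Brap F/F group were the high ones, and no Brap LKO liver reached the lowest of them. From 3 reads over all Brap LKO livers against 83 over all Brap F/F livers, the ratio of reads at equal scaling was 30.5 with a wide counting interval (95% exact binomial, 10.1 to 151, counting error only). A count of 0 allows up to 3 reads in a liver at this depth. Group means were 0.668 ± 0.867 (SD, n = 4) and 21.96 ± 12.6 (SD, n = 4) for Brap LKO and Brap F/F, with a log2 fold change of -3.76 that rests on the pseudocount (-2.14 with a pseudocount of 5). Variance between Brap F/F livers was 6.70 times that expected from counting. Without Brap F/F livers 2 and 3, which were its lowest, the log2 fold change was -4.43. Of 8 other DM domain genes, 2 were in the table and 1, Dmrt2, was tested. Its log2 fold change was 0.47 (95% confidence interval -0.98 to 1.92, limma adjusted p = 0.745), and it was counted at a mean of 13.3.

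Mkx (ENSMUSG00000061013) encodes Mohawk, a homeobox factor of the TALE class that is needed for tendon formation. It spans 70.3 kb on chromosome 18 from 6934518 to 7004780 on the minus strand. Brap LKO livers 1 to 4 held 1.82, 2.55, 11.1 and 1.04 normalized counts. Brap F/F livers 1 to 4 held 38.8, 41.7, 56.8 and 18.6. Brap LKO liver 3 stood above the rest of its group and Brap F/F liver 4 below the rest of its own, so the gap between the groups was narrow, with the lowest Brap F/F liver at 1.68 times the highest Brap LKO liver. Means of 4.13 ± 4.70 (SD, n = 4) in Brap LKO and 39.0 ± 15.7 (SD, n = 4) in Brap F/F livers gave a log2 fold change of -3.23 (standard error 0.560). It was -3.77 without Brap LKO liver 3 and -2.82 without Brap F/F livers 2 and 3. Reads numbered 17 and 148 in the respective groups, a ratio of 9.60 at equal scaling. Variances were 5.50 and 6.29 times those expected from counting in Brap LKO and Brap F/F livers. Of its exon bases, 201 (4.91%) overlap AC148004.2 on the same strand, a gene not analysed here.

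Of 17 other TALE factors, 13 were tested and 0 passed the threshold with limma, while 3 had an unadjusted p under 0.05. These were Meis1, Meis2 and Meis3, cofactors of Hox proteins. Meis1 had 129, 123, 122 and 139 normalized counts in Brap LKO livers 1 to 4 and 101, 79.3, 69.4 and 80.5 in Brap F/F livers 1 to 4. No Brap LKO liver was as low as any Brap F/F liver (log2 fold change 0.64, limma adjusted p = 0.075). DESeq2 on recovered reads (adjusted p = 0.00594) and limma with the same total per liver (adjusted p = 0.0322) called Meis1. Of its exon bases, 896 are shared with Gm16140 on the opposite strand and 1029 with Gm37818 on the same strand. Log2 fold changes were 0.38 for Meis2 and 0.47 for Meis3, both with an adjusted p of at least 0.288 from limma. Irx1 and Irx3, of the Iroquois group, had negative values as Mkx did, at -0.79 (limma adjusted p = 0.521) and -0.75 (limma adjusted p = 0.327). Of the exon bases of Irx3, 124 are shared with Irx3os on the opposite strand. Irx1 was counted at 18.2, 16.1, 12.1 and 9.36 in Brap LKO livers 1 to 4 and at 59.3, 12.2, 9.46 and 47.1 in Brap F/F livers 1 to 4. Its groups overlapped through Brap F/F livers 2 and 3, without which it passed the threshold (log2 fold change -1.89, limma adjusted p = 0.0413). The median log2 fold change of the list was 0.06.

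Genes of tendon and other fibrous tissue, where Mkx is best known, had positive log2 fold changes in all 10 of the 13 listed genes that were tested, with a median of 0.81. With limma 0 of them passed the threshold, and 7 of the 10 had an unadjusted p under 0.05, against 15.8% of all tested genes, namely Lum, Col1a2, Col1a1, Bgn, Col3a1, Tnxb and Egr1. On recovered reads DESeq2 called 5 of them (Bgn, Col1a1, Col1a2, Col3a1 and Lum) and edgeR called 1 (Lum), and limma with the animal series as a covariate called 3 (Bgn, Col1a2 and Lum), each higher in Brap LKO livers. Lum, a proteoglycan of collagen fibrils, was counted at 322, 205, 419 and 469 in Brap LKO livers 1 to 4 and at 113, 131, 142 and 171 in Brap F/F livers 1 to 4. Its groups lay apart, and it was the nearest to the threshold of all related genes (log2 fold change 1.29, limma adjusted p = 0.0534). Col1a1, a chain of type I collagen, had a log2 fold change of 1.44 (limma adjusted p = 0.103) with overlapping groups. The log2 fold changes of Col1a2, Col3a1, Egr1, Tnxb and Bgn were 0.95, 1.04, 1.09, 0.68 and 0.58. The most abundant gene of the list, Dcn, had a log2 fold change of 0.37 (limma adjusted p = 0.427). Tnmd, a tendon gene, was not in the table. The summed normalized count of the list was 13398, 10854, 15923 and 13983 in Brap LKO livers 1 to 4 and 6361, 10388, 10518 and 8738 in Brap F/F livers 1 to 4.

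Pclo (ENSMUSG00000061601) encodes Piccolo, a large scaffold of the active zone, where nerve terminals release vesicles. It spans 349 kb on chromosome 5 from 14514918 to 14863459 on the plus strand, with 22457 exon bases. Counts in Brap LKO livers 1 to 4 were 3.64, 2.55, 3.04 and 2.08 after normalization. Those in Brap F/F livers 1 to 4 were 19.4, 24.4, 24.2 and 8.83. Brap F/F liver 4 was well below the rest of its group and still 2.42 times the highest Brap LKO liver. Group means were 2.83 ± 0.670 (SD, n = 4) and 19.2 ± 7.29 (SD, n = 4) for Brap LKO and Brap F/F, and the log2 fold change was -2.32 (standard error 0.364). It was -1.90 without Brap F/F livers 2 and 3 and -1.57 with a pseudocount of 5. The 12 reads in Brap LKO and 73 in Brap F/F livers gave a ratio of 6.71 at equal scaling. Variances were 0.165 and 2.79 times those expected from counting in Brap LKO and Brap F/F livers. On the opposite strand, 429 of its exon bases overlap Gm26918 and 496 overlap Gm26954, neither of which was analysed here.

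Of 22 genes of the presynaptic active zone, 15 were tested and 13 had positive log2 fold changes, with a median of 0.16. With limma 0 passed the threshold and 2 had an unadjusted p under 0.05. Ppfia4, a liprin that binds active zone proteins, was counted at 50.1, 41.6, 50.6 and 60.3 in Brap LKO livers 1 to 4 and at 31.9, 32.5, 21.0 and 29.4 in Brap F/F livers 1 to 4. Its groups lay apart in the direction opposite to Pclo (log2 fold change 0.80, limma adjusted p = 0.103). DESeq2 on recovered reads (adjusted p = 0.0374) and limma with the same total per liver (adjusted p = 0.0432) called Ppfia4. Rapgef4, an exchange factor activated by cyclic AMP and the most abundant gene of the list, had a log2 fold change of 0.47 (limma adjusted p = 0.208), with 337 exon bases that overlap Rapgef4os2 on the opposite strand. Rims1, Rimbp2, Unc13c and Snap25 were not in the table. Markers of neurons and neuroendocrine cells were counted low in both groups. Of 12 listed, Chga, Elavl4, Gcg, Ins1, Ins2 and Snap25 were not in the table, and 2 were tested, of which 0 passed with limma and 0 had an unadjusted p under 0.05. The summed count of the list was between 25.3 and 37.4 in Brap LKO livers and between 22.8 and 44.7 in Brap F/F livers, and its most abundant gene, Rbfox3, had a mean of 16.2.

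Mapk15 (ENSMUSG00000063704), also known as ERK8, is an atypical MAP kinase that binds autophagy proteins of the GABARAP and LC3 family. It is a compact gene of 5.39 kb on chromosome 15 from 75993769 to 75999154 on the plus strand. Brap LKO livers 1 to 4 had 151, 117, 116 and 122 normalized counts. Brap F/F livers 1 to 4 had 265, 272, 313 and 249. Brap LKO liver 1 lay above the rest of its group, and the groups were separated by a factor of 1.65 between the nearest livers. Mean counts were 127 ± 16.6 (SD, n = 4) in Brap LKO and 275 ± 27.4 (SD, n = 4) in Brap F/F livers, and the log2 fold change was -1.11 (standard error 0.121). Its 536 and 1051 reads make it the best counted of the 5 genes, with a ratio of 2.16 at equal scaling. The livers varied more than counting alone would give, with variances 2.35 and 2.64 times as large in Brap LKO and Brap F/F livers. The smallest log2 fold change was -0.96, with the same total per liver, a scaling that moved the median of all genes to 0.15. Without Brap F/F livers 2 and 3 the value was -1.02.

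Of 13 other MAP kinase genes, 12 were tested. With limma 0 passed the threshold and 0 had an unadjusted p under 0.05. Their median log2 fold change was 0.0063. Mapk14, which encodes p38 alpha and was the most abundant, had a log2 fold change of -0.03 (limma adjusted p = 0.906), and its sign depended on the setting. All 8 listed partners of the Mapk15 protein were tested, and their median was -0.11. None (0) of them passed with limma, and 0 had an unadjusted p under 0.05. The most abundant was Sqstm1, an autophagy receptor, at 0.12 (limma adjusted p = 0.512).

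Over the 8 related lists, 76 genes were tested and 0 passed the threshold with limma, while edgeR called 1 and DESeq2 called 7 on recovered reads. An unadjusted p under 0.05 was found for 13 of them (17.1%), near the 15.8% of all tested genes. All 13 were higher in Brap LKO livers. How many of all tested genes at this p were higher is not given here. Of the 118 tested genes past the adjusted threshold with limma, 16 were lower, so most were higher as well. The fibrous tissue list held 7 of the 13. The median log2 fold change of the 76 genes was 0.06. Without Brap F/F livers 2 and 3, 3 passed with limma (Bgn and Col14a1 as higher and Irx1 as lower), and without Brap F/F liver 4 alone 4 passed, all higher (Col1a1, Egr1, Lum and Rapgef4).

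**Figure D2:**
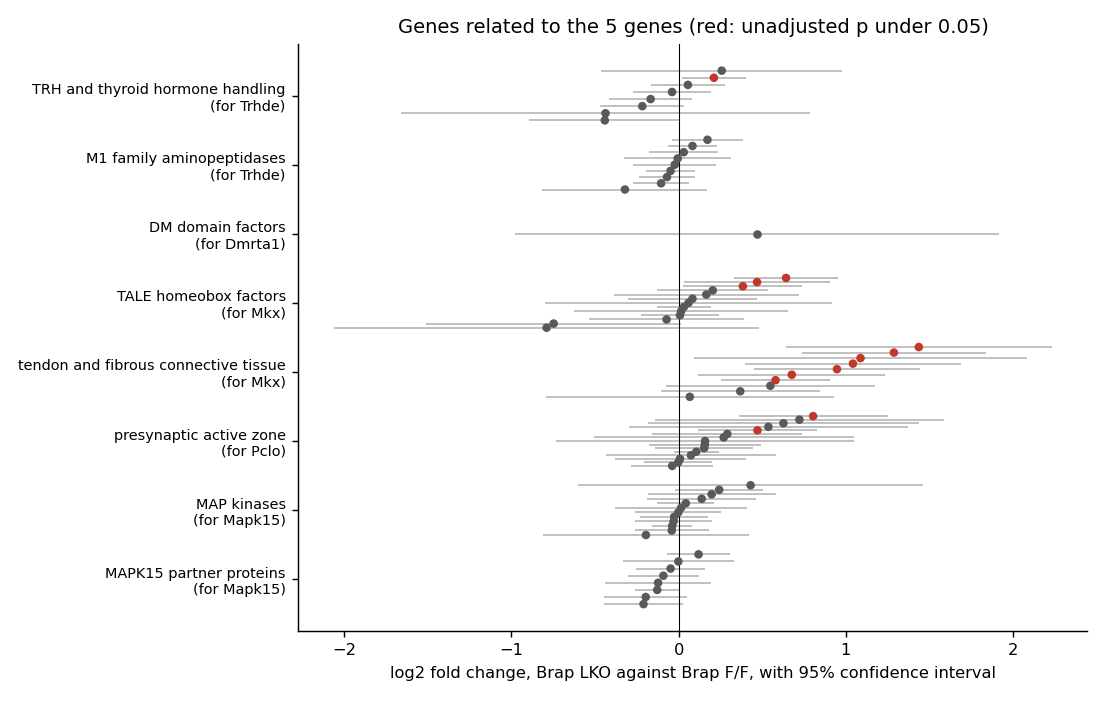
Log2 fold changes (horizontal axis, Brap LKO against Brap F/F livers, 4 livers each) of the tested genes of 8 related lists, as points with 95% confidence intervals from limma, in red where the unadjusted p was under 0.05. The fibrous tissue list lies to the right of 0, and none of the 76 genes passed the adjusted threshold with limma.

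Levels of the 5 genes were compared per kb of exon. In Brap F/F livers Mapk15 was highest, at 107 ± 10.7 (SD, n = 4) normalized counts per kb, followed by Trhde at 11.7 ± 0.484 (SD, n = 4). Mkx stood at 9.52 ± 3.83 (SD, n = 4) and did not differ from Trhde beyond its spread. Dmrta1 had 5.24 ± 2.995 (SD, n = 4), within the joint spread of Mkx, and Pclo was lowest at 0.855 ± 0.325 (SD, n = 4). The median tested gene had 69.8 normalized counts per kb, so Mapk15 was the only one of the 5 above it. In Brap LKO livers the levels per kb were 49.4 for Mapk15, 1.98 for Trhde, 1.01 for Mkx, 0.159 for Dmrta1 and 0.126 for Pclo. Trhde and Pclo are long genes, at 403 kb and 349 kb, where the median tested gene spans 20.7 kb and 2.20% of tested genes span over 300 kb.

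**Figure D3:**
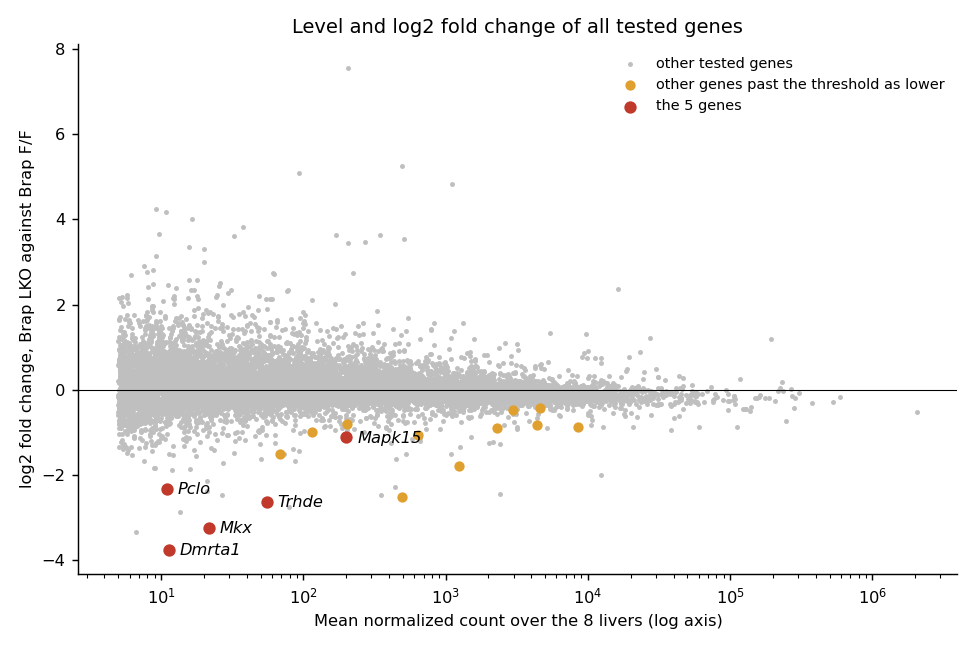
Mean normalized count over the 8 livers (horizontal log axis) and log2 fold change of Brap LKO against Brap F/F livers (vertical axis) for the 15352 tested genes, with the 5 genes in red and the other genes past the threshold as lower in orange. The 5 genes were chosen for their low values, and Dmrta1 has the lowest log2 fold change of all tested genes.

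The 5 genes shared their highest and lowest livers in part, but not in full. Brap LKO liver 1 was the highest of its group for 4 of them and Brap LKO liver 4 the lowest for 4, counting ties. Among Brap F/F livers, liver 3 was highest for 3 genes and liver 4 lowest for 3. Of the 5, only Dmrta1 was highest in Brap F/F liver 1 and lowest in Brap F/F liver 3, and only Mkx was highest in Brap LKO liver 3.

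Genes just inside and just outside the rule show how it works. By log2 fold change, Dmrta1 ranked 1, Mkx 3, Trhde 6, Pclo 12 and Mapk15 87 among the tested genes, counted from the lowest. Rab38, a GTPase of pigment granules, had 0 reads in every Brap LKO liver. In Brap F/F livers 1 to 4 it had 22.8, 3.05, 3.15 and 24.5 normalized counts. It did not pass the threshold (limma adjusted p = 0.0644). Its values in Brap F/F livers 2 and 3 equal the 3 reads that a count of 0 allows. Slc8a3, a sodium and calcium exchanger, and Fam184a had groups that lay apart and log2 fold changes of -2.86 and -2.37, without passing. Gm42031, Gm4316 and Cyp2b10 had the lowest log2 fold changes among genes whose groups overlapped, at -2.74, -2.47 and -2.46. Cyp2b10, a xenobiotic-metabolizing enzyme, was highest at 1483 and 657 in Brap F/F livers 2 and 3.

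The other 11 genes past the threshold as lower were Serpine2, Serpina7, Dlgap1, Dpy19l3, Dcaf12l1, Cpeb2, Serpina3m, Cyp2c37, P4ha2, Perp and Smoc1. Their log2 fold changes ran from -2.52 for Serpine2, an inhibitor of serine proteases, to -0.42 for Smoc1, a matrix glycoprotein. Serpina7, the thyroxine-binding globulin of blood, was counted at 433, 477, 586 and 719 in Brap LKO livers 1 to 4 and at 2051, 1825, 2402 and 1410 in Brap F/F livers 1 to 4. The 2 groups of Serpina7 lay far apart (log2 fold change -1.79, limma adjusted p = 0.00665). Like Trhde it bears on thyroid hormone, but it was not in the list above. Dlgap1, like Pclo a scaffold of synapses but on the receiving side, was counted at 51.0, 26.3, 22.3 and 46.8 in Brap LKO livers 1 to 4 and at 103, 85.4, 104 and 109 in Brap F/F livers 1 to 4. Its log2 fold change was -1.51 (limma adjusted p = 0.0444). Most of these 11 calls depended on the setting. Of 19 other settings (replicate block not counted), Serpina7 and Serpina3m were past the threshold in all 19 and Serpine2 in 17, but Dpy19l3 in 13, Cyp2c37 in 10, Dcaf12l1 in 9, Cpeb2 and Perp in 8, Dlgap1 in 7 (adjusted p up to 0.107), P4ha2 in 6 and Smoc1 in 4. Of Serpina3m, 60 exon bases are shared with Serpina3k on the same strand, and the Serpina3 genes are close copies whose reads could be split between them. Cyp2c37 likewise belongs to a family of close copies.

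**Figure D4:**
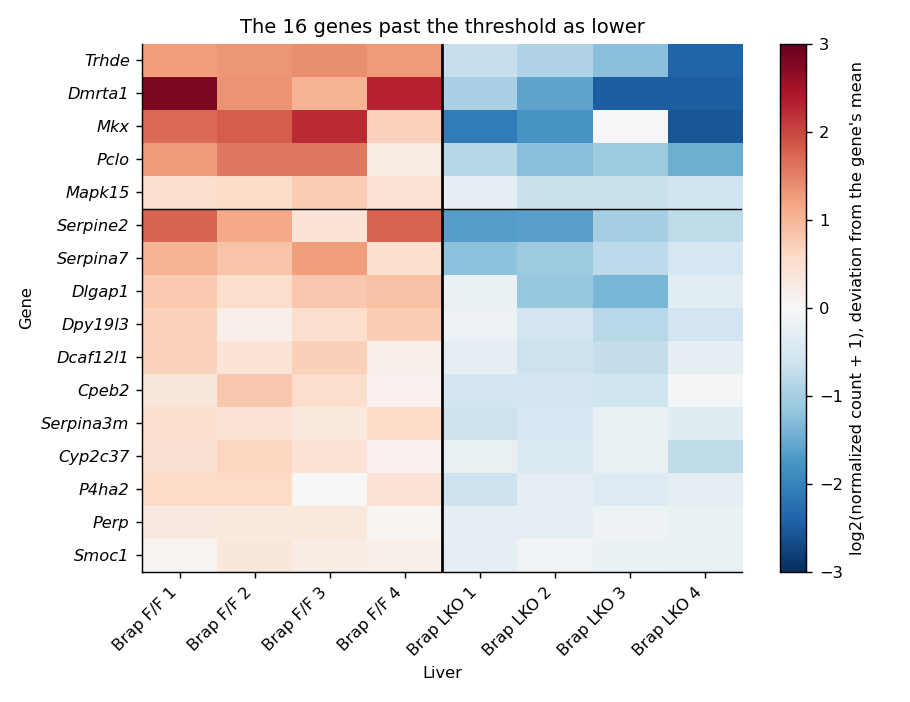
Deviation of log2(normalized count + 1) from each gene's mean over the 8 livers (colour, blue lower and red higher) for the 5 genes (top) and the other 11 genes past the threshold as lower, with livers as columns. Each gene is lower in all Brap LKO livers, and Dmrta1 and Mkx span the widest range.

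The tested genes whose log2(normalized count + 1) ran most alike over the 8 livers are named as a description. The likeness over both groups includes the difference between them, and likeness within a group was not tested. For Trhde they were Fam120a (Pearson r = 0.972), Fam8a1 (0.970) and Nars2 (0.968), whose log2 fold changes were only -0.12, -0.10 and -0.15. For Dmrta1 they were Dpy19l3 (0.966), Chn1os3 (0.953) and Mrpl32 (0.953). Cyp2c29 (0.978), Zdhhc4 (0.975) and Wdr61 (0.966) were nearest to Mkx. Cyp2c29, an abundant cytochrome P450, shared the high value of Brap LKO liver 3, at 37582 against 18168 to 26838 in the other Brap LKO livers. Perp (0.973) and Slc8a3 (0.969) were among the 3 nearest to Pclo, and Glud1 (0.975), Pclo (0.962) and Eri3 (0.962) were nearest to Mapk15. Perp and Dpy19l3 are also among the 16 lower genes.

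Position was not used to choose the genes, which lie on 5 different chromosomes. Of the 30 nearest protein-coding neighbours, 3 on each side of each gene, 20 were in the table and 17 were tested. None (0) passed the threshold with limma, edgeR or DESeq2. With limma 2 had an unadjusted p under 0.05 (11.8%, against 15.8% of all tested genes). Both lie near Dmrta1. Cdkn2a and Cdkn2b encode inhibitors of cell cycle kinases and lie 385 kb and 368 kb from it. Both passed the filter of 5 only through the Brap LKO livers, where they were high, and nothing is read from their p-values. They are included in the 11.8% above. Cdkn2a was counted at 15.5, 11.04, 6.07 and 5.20 in Brap LKO livers 1 to 4 and at 1.14, 4.07, 4.20 and 0.981 in Brap F/F livers 1 to 4. Its few counts did not overlap between the groups and lay in the direction opposite to Dmrta1 (log2 fold change 1.57, limma adjusted p = 0.178). Cdkn2b had 10.9, 6.80, 19.2 and 15.6 normalized counts in Brap LKO livers 1 to 4 and 5.70, 7.12, 4.20 and 0.981 in Brap F/F livers 1 to 4, with groups that overlapped (log2 fold change 1.45, limma adjusted p = 0.215). The other 15 tested neighbours had log2 fold changes between -0.19 and 0.20. Fam83h, which begins 1.94 kb from the end of Mapk15, differed by 0.06 on the log2 scale (95% confidence interval -0.12 to 0.24).

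**Figure D5:**
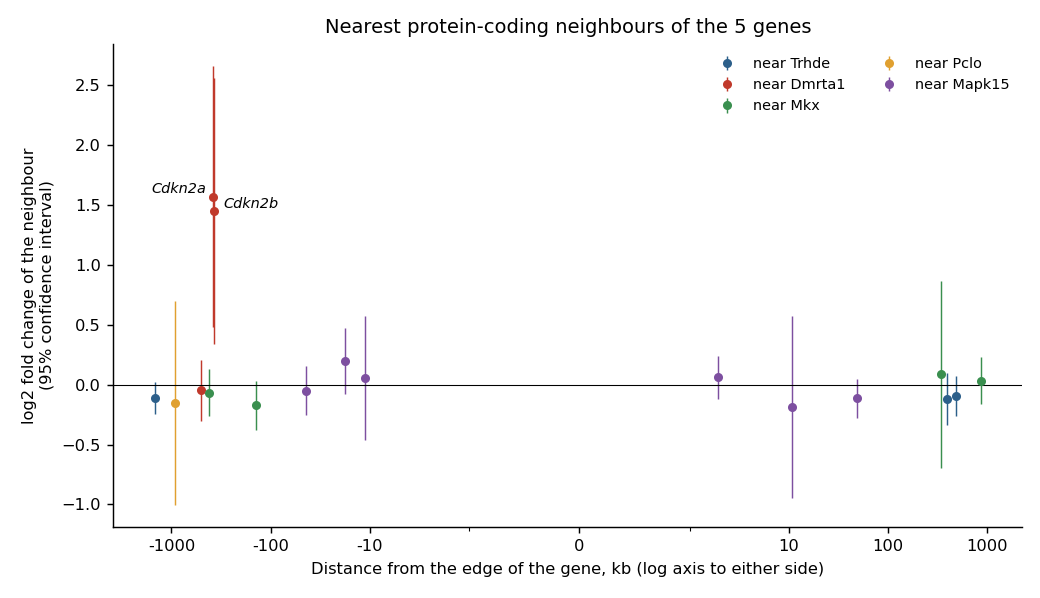
Log2 fold change (vertical axis, Brap LKO against Brap F/F livers, with 95% confidence intervals from limma) of the 17 tested protein-coding neighbours against their distance in kb from the edge of each of the 5 genes (horizontal log axis to either side, negative towards lower chromosome positions). Cdkn2a and Cdkn2b, near Dmrta1, lie above 0 and the other neighbours near 0.

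Markers of liver cell types are given beside the 5 genes, and their part in the low values was not tested. Of 90 tested marker genes, 5 passed the threshold with limma, all higher in Brap LKO livers, and 29 had an unadjusted p under 0.05. These are 5.56% and 32.2% of the markers, against 0.769% and 15.8% of all tested genes. Of the 118 tested genes past the threshold with limma, 16 were lower, so most were higher as well. On recovered reads edgeR called 5 and DESeq2 called 14 of the 90 markers, again all higher. The 5 of limma were Cftr and Cldn4 of cholangiocytes, Pdgfrb of stellate cells and fibroblasts, Wt1 of mesothelium and Rhbg of pericentral hepatocytes. Without Brap F/F liver 2, Brap LKO liver 1 or Brap LKO liver 4 the number was 0. Without Brap F/F livers 2 and 3 it was 4, with Cftr and Wt1 in common. With a minimum mean of 20 it was 2, Rhbg and Wt1. Cftr and Cldn4 passed the filter of 5 only through the Brap LKO livers, where they were high, and nothing is read from their calls. They are included in the 5.56% above. Markers of hepatocytes, the cells the Albumin promoter is used for, had a median log2 fold change of -0.19, with 0 of 14 past the threshold with limma and 2 at an unadjusted p under 0.05. Their summed count ran from 2781860 to 3448710 in Brap LKO and from 3292540 to 4478490 in Brap F/F livers, and the most abundant, Alb, had a log2 fold change of -0.52. Each of the 14 was in the table. Stellate cell and fibroblast markers, which share Lum, Dcn, Col1a1 and Col3a1 with the fibrous tissue list, had a median of 0.44, with 6 of 12 at an unadjusted p under 0.05, and summed to between 8592 and 12955 in Brap LKO and between 5697 and 9723 in Brap F/F livers. The 6 mesothelial markers had a median of -0.03, and their most abundant gene, Upk3b, a log2 fold change of -0.71.

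The cholangiocyte list had a median log2 fold change of 0.95 over 9 tested genes, of which 6 had an unadjusted p under 0.05, and its most abundant gene, Spp1, had the same value. Medians were 0.70 for lymphocytes, with Ptprc the most abundant gene, 0.47 for macrophages and monocytes, with Clec4f, and 0.17 for sinusoidal endothelium, with Stab1. In these 3 lists 0 genes passed with limma and 4, 3 and 0 had an unadjusted p under 0.05. On recovered reads DESeq2 called Ccr2 and Lyz2 of macrophages and monocytes and Ms4a1 and Ptprc of lymphocytes, each higher in Brap LKO livers. Ms4a1 passed the filter only through these livers (mean 4.19 in Brap F/F livers). Limma called Ccr2 and Ptprc with the same total per liver, Ccr2 without trend, and the endothelial Lyve1 without Brap F/F livers 2 and 3. Pericentral and periportal hepatocyte markers had medians of 0.31 and -0.18, with Cyp2e1 and Alb the most abundant. Cyp2e1 had a log2 fold change of -0.42, opposite in sign to the median of its list, in which 8 genes were positive and 2 negative. Of the 10 pericentral genes, 6 had an unadjusted p under 0.05. Male-biased genes had a median of 0.60 and female-biased genes one of -0.35, with Serpina1e and Fmo2 the most abundant. None (0) of the periportal, male-biased and female-biased genes passed with limma, and 1, 5 and 1 had an unadjusted p under 0.05. Of the 22 tested sex-biased genes, edgeR called 0 and DESeq2 called 3 on recovered reads, Ugt2b1 as higher and Cyp2b10 and Cyp2b9 as lower in Brap LKO livers.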

How the data were processed

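RNA of 8 livers, 1 library per mouse, was grouped by the deposited labels. The deposited signal of each gene is its read count, scaled by the authors with size factors from DESeq2. Per the submitters' notes, reads were aligned to mm10 with STAR 2.6.0c. The counting tool and strand are not given in the sources used here. All values (100%) were whole multiples of the value of 1 read (tolerance 0.001 reads), so reads were recovered. A comparison file with the authors' fold changes and p-values was not used. Groups were compared with limma 3.58.1 (R 4.3.3; lmFit, eBayes with trend) on log2(normalized count + 1) for genes with a mean of at least 5, with Benjamini-Hochberg adjustment over all of them (threshold 0.05). The study's test, DESeq2, models counts, so DESeq2 1.42.0 and edgeR 4.0.16 were alternatives, calling 607 and 122 genes on the recovered reads. The procedure was tested on simulated data, and no value from that test is used here. Positions came from GENCODE M21, in which 24430 genes were found. Summaries used Python 3.11.15, pandas 2.3.3 and scipy 1.17.1. The genes named were the 5, Brap, the other genes past the threshold as lower, related genes and neighbours with an unadjusted p under 0.05 or the largest mean of their list, the 3 most alike in Pearson r, the most abundant marker of each list and 3 low genes with overlapping groups; other genes given with values were chosen after their values were seen. Under this rule 2 genes are not reported here. The 5 genes and the lists were chosen with earlier results of these data known.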

Additional observations from a re-analysis of the deposited data

Results flagged for a closer look

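In 5 of 76 groups of 4 livers, 1 liver was distant from its 3 companions, judged by its gap to the nearest of them over the whole range. Chance flags about 1 in 20 groups, or 3.8 of this number. Brap LKO replicate 3 had 11.1 normalized counts of Mkx, and its companions had no more than 2.55. Brap LKO replicate 1 had 151 of Mapk15 against no more than 122. Brap LKO replicate 4 had 2074 of Cpeb2 against no more than 1451. Brap F/F replicate 2 had 280 of Gm42031 against no more than 71.5, and Brap F/F replicate 4 had 412 of Egr1 against no more than 114. No cause of these values was tested.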

How the results depend on the processing

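The mean log2 fold change of the 5 genes, which were chosen for being low in this contrast, is given as a description. It was -2.61, and -1.89 with a pseudocount of 5. It lay between -2.72 and -2.41 with 1 liver left out. The number of genes past the threshold went from 118 to 607 with DESeq2 and 479 with the same total per liver, which moved the median of all genes to 0.15, and lay between 18 and 232 with 1 liver left out. For lower genes it went from 16 to 159 with DESeq2, 9 with a minimum mean of 20 and 48 without Brap F/F livers 2 and 3 (chosen after seeing the data), and lay between 4 and 54 with 1 liver left out. Related genes past the threshold went from 0 to 7 with DESeq2, 1 with edgeR, 1 without a filter, 6 with the same total per liver, and 3 each with the animal series as a covariate and without Brap F/F livers 2 and 3, and lay between 0 and 4 with 1 liver left out. Marker genes, with the sex-biased genes included, went from 5 to 17 with DESeq2, 2 with a minimum mean of 20, 3 with a pseudocount of 0.5 and 11 with the same total per liver, and lay between 0 and 9 with 1 liver left out. The number of neighbours past the threshold was 0 in limma, edgeR and DESeq2 under every setting tried. In limma 2 had an unadjusted p under 0.05, Cdkn2a and Cdkn2b, which passed the filter only through the Brap LKO livers. The cause of these moves was not tested.

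With the replicate number as a block (replicate block), 95 genes passed, 15 of them lower, among them 6 of the other 11 lower genes, with 3 related genes (Col1a1, Col3a1 and Lum), 7 marker genes and 0 neighbours, and the mean of the 5 genes was -2.61. Livers with the same number correlated between -0.13 and 0.29 in their deviations from the group means. Livers of the 2 groups with different numbers correlated between -0.29 and 0.20. Whether the numbers pair the livers cannot be told from these values.

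Of the related genes reported, the sign turned for 2 abundant ones near 0, neither past the threshold. Anpep went to 0.010 with TMM factors, 0.15 with the same total, 0.12 and 0.013 without Brap F/F replicates 1 and 4, and 0.075 and 0.0052 without Brap LKO replicates 1 and 3, and its range with 1 liver left out was -0.079 to 0.12. Mapk14 went to 0.13 with the same total, 0.075 without Brap F/F livers 2 and 3, 0.0025 and 0.0076 without Brap F/F replicates 2 and 3, and 0.055 without Brap LKO replicate 4, in a range of -0.085 to 0.055 with 1 liver left out. Depth limits Dmrta1 and Pclo most, with 3 and 12 reads in the Brap LKO livers together.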
